A study of Mus musculus with 9 samples.

Results

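Doxorubicin alone was compared with its saline control in mouse cells, across all genes, with the emphasis on those outside the cell division and p53 lists; the few named genes that belong to those lists are marked as such. The comparison used 6 of the 9 Affymetrix transcript arrays of the study, chosen by their titles: 3 arrays of cells given phosphate-buffered saline (Con) and 3 of cells given 0.3 µM doxorubicin (DOX). The other 3 arrays were of cells given 0.3 µM doxorubicin and 20 ng/ml interferon gamma. In the main fit they entered only the estimate of the spread between arrays. They also entered the means over all 9 arrays that marked dim genes and chose between several readings of a gene. The fit with a term for sets of arrays, described below, drew on them as well. By the labels, all arrays carried total RNA of HL-1, an immortalized mouse cell line described as cardiomyocyte and of heart origin. The cells were dosed at 80% confluence in medium with serum. No label says whether the 3 arrays of a group came from separate cultures, so the p-values rest on a spread between arrays that may be only technical. How long the cells were treated is not given in the sources used here.

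Doxorubicin is an anthracycline cancer drug that slips between DNA bases and holds topoisomerase II on cut DNA. Its use is limited by injury to the heart, and cardiomyocytes given the drug are a common model of that injury. Topoisomerase poisons halt division and raise p53 targets. The levels of the genes that make lipids, charge transfer RNAs, acidify lysosomes, fold proteins and hold cells to their matrix are described here, since these are less often the subject of such data.

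Values are the deposited log2 expression values, so a difference of 1 is a doubling of the signal, and every difference is DOX minus Con. A gene is called when limma's p-value, adjusted by Benjamini-Hochberg over the 30050 genes tested, is under 0.05. Of these genes 4687 were called, or 15.6%. They divided into 2423 called higher, 8.06% of the genes tested, and 2264 called lower, 7.53%. These shares are the background set beside the counts below. The median difference over all genes was -0.01. A change of at least 2-fold was seen for 324 of the genes called higher and 327 of those called lower, and one of at least 4-fold for 41 and 69. Of 18998 protein-coding genes 19.6% were called. Among called genes the median size of change was 0.50 on the log2 scale. Probes of 1561 olfactory, vomeronasal and taste receptor genes served to mark dim signal: 95% of them had a mean of 4.70 or less, and this value is called the receptor limit. Above it lay 12045 genes, of which 17.4% were called higher and 15.7% lower. Many gene lists below lay mostly above it, and for them these larger shares are the closer background. Examples are the transfer RNA synthetases with 21 of 21, the proteasome with 34 of 34 and the actin list with 33 of 33. Against 17.4%, the shares called higher of the lists of endoplasmic reticulum folding, actin, methylation and heat shock, 17.4% to 19%, were near background.

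The arrays fell into sets by their exact values. Con replicate 1, all 3 DOX arrays and 2 of the arrays with interferon gamma shared 82 to 186 exactly identical values in each pair, and every other pair shared 1 to 17. Con replicates 2 and 3 thus stood outside the set that held the DOX arrays. With the set as a term in the fit, 1906 genes were called higher and 1769 lower, and against Con replicate 1 alone 1138 and 1389. All 4687 called genes kept their sign in both fits, and 3272 of them were called again with the set as a term. Both fits share the DOX arrays and Con replicate 1 with the main fit, so a kept sign was close to given. Counts of a few members of a list often moved by 1 or 2 members when 1 array was left out, so only the larger shifts are given beside the counts.

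The label of the cells was checked against marker genes. Of 15 heart muscle markers 3 lay above the receptor limit, namely Tnnt2, Nkx2-5 and Hand2, while Myh6, the atrial myosin heavy chain, read 4.29, 4.34 and 4.25 on the Con arrays and Nppa, the atrial natriuretic peptide, 4.02, 3.86 and 4.03. Of 13 skeletal muscle and myoblast markers 8 lay above it, of 11 fibroblast markers 7, and of 7 smooth muscle markers 4. Endothelial, leukocyte and neuron lists had 1 each above the limit of 9, 10 and 8, the epithelial list 3 of 8, and the adipocyte list 0 of 7. Most heart muscle markers thus lay under the limit, and most skeletal muscle, fibroblast and smooth muscle markers above it. These values do not bear out the cardiomyocyte label, and the identity of the cells was not tested. The summed signal of the heart muscle markers had a log2 of 8.99 to 9.12 on the Con arrays and 8.52 to 8.60 on the DOX arrays, that of the endothelial markers 7.19 to 7.31 and 7.42 to 7.51, and that of the leukocyte markers 7.57 to 7.67 and 7.66 to 7.74. That of the fibroblast markers had a log2 of 18.44 to 18.66 on the Con arrays and 18.04 to 18.22 on the DOX arrays, that of the smooth muscle markers 15.51 to 15.66 and 14.98 to 15.29, and that of the skeletal muscle markers 10.10 to 10.29 and 9.39 to 9.58. Such a sum follows its brightest members, so a change in 1 gene can move it. Of the 15 heart muscle markers 2 were called, Tnnt2 and Hand2, both lower, and the list median was -0.02. Of the endothelial markers only Eng was called, higher by 0.89, and of the leukocyte markers only Cd14, higher by 0.25. Fibroblast markers had 5 called lower and 2 higher, smooth muscle markers 3 and 2, and skeletal muscle markers 5 and 3. In bulk RNA, fewer cells of a kind and less RNA per cell cannot be told apart.

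The largest rises outside the p53 and division lists took in genes of very different roles. They included Lims2, an adaptor of the integrin-linked kinase complex, Atp6v1d, a subunit of the vacuolar proton pump, Mmp2, a collagen-cutting metalloproteinase, Klf10, a zinc finger factor induced by TGF-beta, Id2, a blocker of helix-loop-helix factors, and Txnip, a thioredoxin-binding protein. The largest falls included Myog, the muscle differentiation factor myogenin, Nfib, a factor of the nuclear factor I family, Dpysl2, a tubulin-binding protein, Fdps, which makes farnesyl diphosphate, Ahcy, which breaks down S-adenosylhomocysteine, and Pfkm, the muscle phosphofructokinase. The rises ran from 4.82 for Pinlyp, a gene named for a phospholipase inhibitor domain, to 2.51 for Txnip, and the falls from -3.42 for Myog to -1.69 for Cox6b1, a subunit of cytochrome oxidase. Each of the 15 largest rises and 15 largest falls was called in all 9 fits that left out 1 array.

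**Figure D1:**
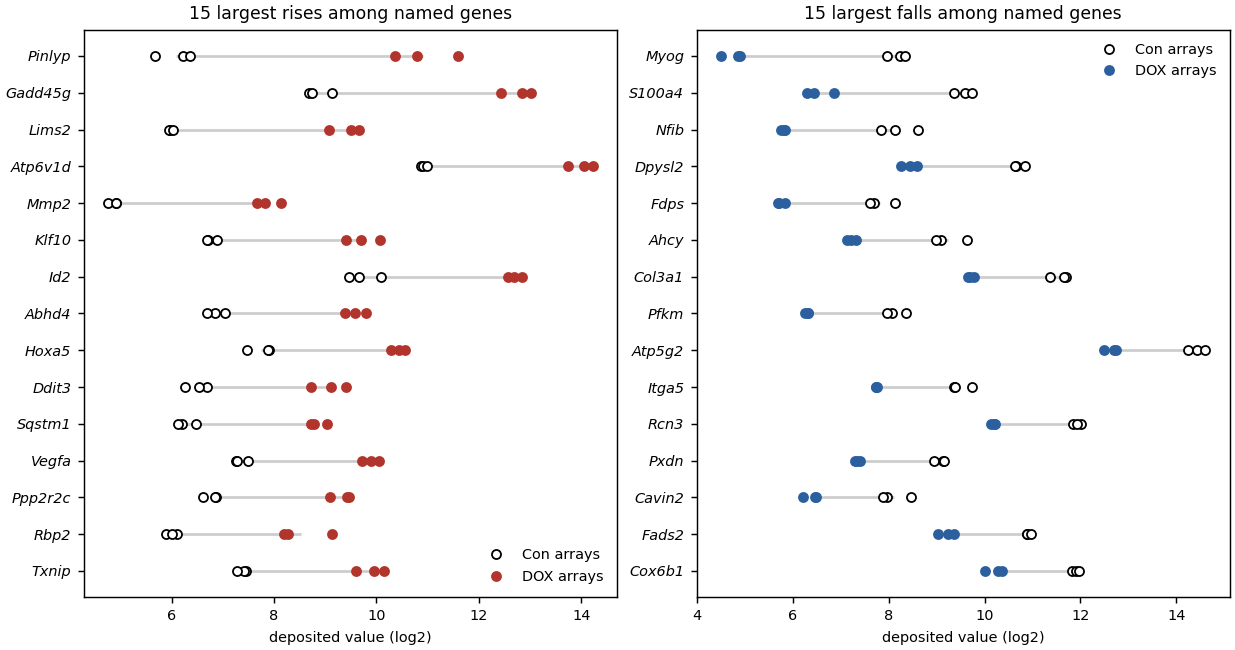
Deposited log2 values (horizontal axis) of the 15 genes with the largest rise (left) and the 15 with the largest fall (right) under the naming rule, 1 point per array, open for Con and filled for DOX, with a grey line between the group means. In every row the 3 DOX points lie apart from the 3 Con points, as the rule required; Pinlyp and Myog head the panels at 4.82 and -3.42.

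Values on single arrays show how tight the groups were. Pinlyp read 5.69, 6.22 and 6.37 on the Con arrays and 10.79, 11.59 and 10.36 on the DOX arrays, with an SD of 0.36 and 0.62. Vegfa, the main growth factor of blood vessels, read 7.49, 7.25 and 7.27 against 10.06, 9.72 and 9.89, a difference of 2.55 (SE 0.096, adjusted p = 5.57e-06). Rbp2, a cellular retinol-binding protein, was also uneven, at 5.90 to 6.11 on the Con arrays against 8.19, 9.12 and 8.28. In all 3 genes every DOX array lay well above every Con array, as the naming rule required of the largest rises. Of all genes 32.9% showed such separation in either direction.

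**Figure D2:**
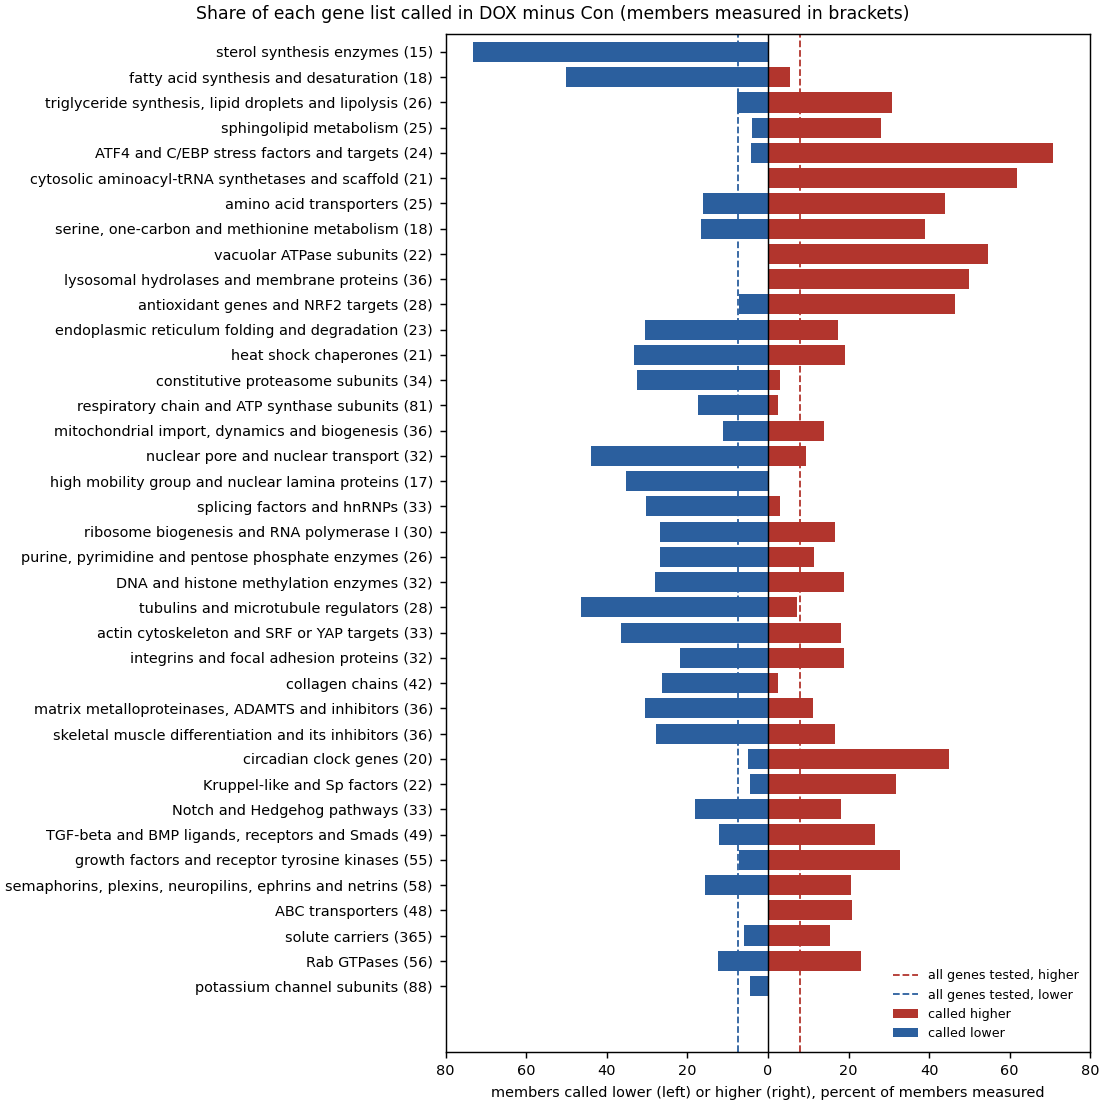
Percent of the measured members of 38 gene lists called lower (left, blue) or higher (right, red) in DOX minus Con, with the number measured in brackets. Dashed lines mark the shares over all genes tested, 8.06% higher and 7.53% lower; sterol synthesis reaches 73.3% on the left, and the list of ATF4 and C/EBP genes 70.8% on the right.

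Sterol synthesis was the list with the largest share of members lower in the plot of list shares. Of 15 enzymes measured, 11 fell, 73.3% against a background of 7.53%, none rose, and the median difference was -0.40. Against Con replicate 1 alone 8 were called lower, and with dim genes left out 7 of the 9 that stayed. These enzymes turn acetyl-CoA into cholesterol, and their genes are switched on by the membrane-bound factor SREBP2, encoded by Srebf2, when cholesterol in the endoplasmic reticulum is low. The DNA that SREBPs bind, the sterol regulatory element, lies near a CCAAT box, bound by NF-Y, in many of these promoters. Promoters of a called member with each are shown from RefSeq (GRCm38.p6), 5′ to 3′ on the strand of the gene, with the motif in capitals. They are Hmgcs1 at chr13:119690190-119690246 on the plus strand and Cyp51 at chr5:4104698-4104750 on the minus strand.
Hmgcs1: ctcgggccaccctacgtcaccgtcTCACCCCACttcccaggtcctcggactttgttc
Cyp51: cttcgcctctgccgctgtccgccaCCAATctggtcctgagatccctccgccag
The searched window was 300 bases, 250 of them before the start of the gene. Searched on both strands, TCACNCCAC was in 1 of the 12 sterol promoters found in RefSeq, that of Hmgcs1, 137 bases before its start, and in 1.42% of 15397 protein-coding promoters. CCAAT was in all 12, and in 41.9% of all. The 12 promoters were those of 8 members that fell and 4 that were not called.

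Fdps, the farnesyl diphosphate synthase that nitrogen-containing bisphosphonates block, read 7.68, 7.60 and 8.14 on the Con arrays and 5.71, 5.69 and 5.83 on the DOX arrays, 4.19-fold lower (adjusted p = 4.39e-05). Hmgcs1, which makes the HMG-CoA that statins keep from being reduced, read 6.25, 5.98 and 5.81 against 4.40, 4.37 and 4.34, and fell by 1.64 (SE 0.11). The DOX values of Hmgcs1 lay under the receptor limit on all 3 arrays, so the signal left is within that of silent receptor genes. Fdft1, the squalene synthase, fell by 1.11 (SE 0.064) and Cyp51, the lanosterol demethylase, by 1.09 (SE 0.088). The groups did not overlap in either gene, which held for 32.9% of all genes in either direction. Among 11 genes that control sterol level, 3 fell and 2 rose. Srebf2 fell from 6.73, 6.84 and 6.68 to 5.89, 5.97 and 5.88 (adjusted p = 5.51e-05), and Insig1, which holds SREBP in the reticulum, fell by 0.78 (SE 0.12). Abca1, the pump that exports cholesterol, went the other way, from 5.48, 5.48 and 5.36 to 6.43, 6.55 and 6.39, 2.03-fold higher.

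Enzymes that build and desaturate fatty acids were mostly lower where they were called. Of 18 measured, 9 fell and 1 rose, with a median of -0.23. Fads2, the delta-6 desaturase of polyunsaturated fatty acids, read 10.89, 10.89 and 10.96 on the Con arrays against 9.24, 9.36 and 9.03, 3.27-fold lower (adjusted p = 2.63e-05). Elovl6, the elongase of palmitate, fell by 1.54 (SE 0.15), Acaca, the acetyl-CoA carboxylase that commits carbon to fat, by 1.44 (SE 0.091), and Acly, which supplies cytosolic acetyl-CoA from citrate, by 1.07 (SE 0.075). The riser was Fads3, a desaturase family member, at 12.23, 12.16 and 12.59 against 13.15, 13.39 and 12.89. Genes that store and release triglyceride differed from those that make fatty acids: 8 of 26 rose and 2 fell. Dgat2, which adds the last acyl chain to triglyceride, rose from 6.63, 6.55 and 6.86 to 8.64, 8.86 and 8.36, 3.84-fold (adjusted p = 4.02e-05), and Pnpla2, the adipose triglyceride lipase, rose by 0.69 (SE 0.084). Against Con replicate 1 alone, 4 members of this list were called higher.

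**Figure D3:**
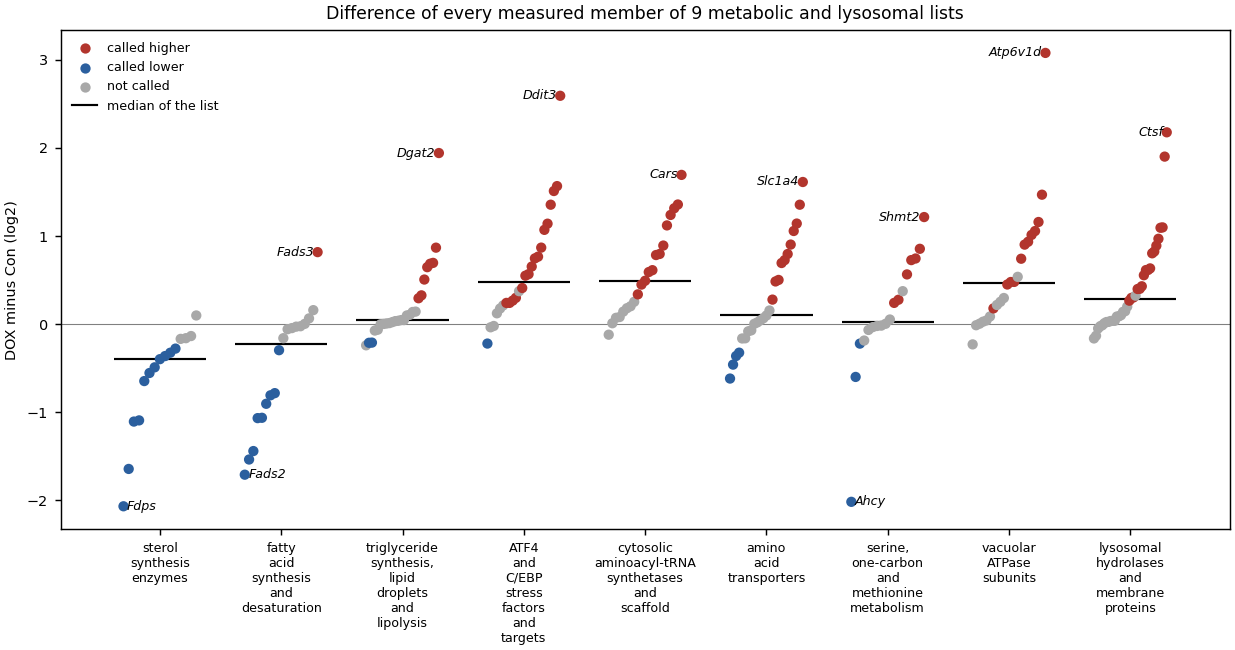
Difference DOX minus Con (log2, vertical axis) of every measured member of 9 lists, sorted within each list; red points were called higher, blue lower and grey not called, and black bars are list medians. The medians run from -0.40 for sterol synthesis to 0.49 for the transfer RNA synthetases, and Fdps and Atp6v1d are the outermost points at -2.07 and 3.08.

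Genes that load amino acids onto transfer RNA were higher where they were called, and amino acid transporters were more often higher than lower. Many of these genes belong to the response to amino acid shortage, in which the kinase GCN2 phosphorylates the initiation factor eIF2 and translation of the factor ATF4 goes up. ATF4 with C/EBP partners binds a composite element, written here as TGATGNAA. Of 21 cytosolic aminoacyl-tRNA synthetases and their scaffold proteins, 13 rose and none fell, with a median of 0.49. That is 61.9%, against 8.06% of all genes and 17.4% of genes above the receptor limit, where all 21 lay. Of 24 ATF4 and C/EBP factors and targets 17 rose and 1 fell, with a median of 0.48. Of 25 amino acid transporters 11 rose and 4 fell. Against Con replicate 1 alone, 12 synthetases, 9 ATF4 genes and 10 transporters were called higher.

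Promoters of a target of each kind are shown with the element in capitals, in the same build: Chac1, a glutathione-degrading enzyme, at chr2:119351025-119351080 on the plus strand, Slc7a11, the cystine importer, at chr3:50443629-50443703 on the minus strand, and Gars, the glycyl-tRNA synthetase, at chr6:55037947-55038000 on the plus strand.
Chac1: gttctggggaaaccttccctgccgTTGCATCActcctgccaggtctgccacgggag
Slc7a11: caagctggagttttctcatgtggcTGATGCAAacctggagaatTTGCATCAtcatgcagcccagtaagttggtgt
Gars: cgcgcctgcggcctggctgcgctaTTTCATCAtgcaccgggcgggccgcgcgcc
Chac1 and Gars carry the element on the opposite strand, and Slc7a11 carries it on each strand, 66 and 47 bases before the start. TGATGNAA was in 8 of 21 promoters of the ATF4 list, 4 of 14 of the synthetases and 3 of 18 of the transporters, against 3.81% of all. All 4 synthetases and all 3 transporters with the element were among those that rose, and of the 8 ATF4 genes with it 6 rose. The part of the element in these rises was not tested.

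Cars, the cysteinyl-tRNA synthetase, read 6.98, 7.10 and 7.19 on the Con arrays and 8.86, 9.01 and 8.49 on the DOX arrays, 3.23-fold higher (adjusted p = 0.00013). Gars read 14.12, 14.21 and 14.39 against 15.64, 15.80 and 15.35. Eprs, which loads both glutamate and proline, rose by 1.31 (SE 0.17) and Nars, for asparagine, by 1.24 (SE 0.091). The transporter with the largest rise was Slc1a4, which carries alanine, serine and cysteine, from 4.97, 5.07 and 4.98 to 6.69, 6.74 and 6.43 (adjusted p = 2.6e-05). Slc38a7, a glutamine carrier of the lysosome, rose by 1.14 (SE 0.096) and Slc6a9, the glycine transporter, by 1.06 (SE 0.086). Slc7a6, an exchanger of cationic and neutral amino acids, fell by 0.62, and Slc6a6, the taurine transporter, fell by 0.46. Ddit4, an mTORC1 inhibitor, rose by 1.51 (SE 0.21).

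Serine, folate and methionine metabolism divided. Shmt2, the mitochondrial serine hydroxymethyltransferase, rose from 6.27, 6.12 and 6.58 to 7.64, 7.59 and 7.38, 2.32-fold. Ahcy fell from 9.09, 8.99 and 9.63 to 7.22, 7.31 and 7.13, 4.04-fold (adjusted p = 5.32e-05). In all 7 of 18 members rose and 3 fell, against 4 and 1 with Con replicate 1 alone. Of 9 polyamine genes, a short list, 3 rose and 1 fell, 33.3% and 11.1%, against 17.4% and 15.7% of genes above the receptor limit. The fall was Srm, the spermidine synthase, whose call was lost with the set of arrays as a term (adjusted p = 0.094 by limma). The rises were Sat2 and Sat1, acetyltransferases that mark polyamines for export, by 1.34 (SE 0.10) and 0.94 (SE 0.089), and Odc1, the decarboxylase that makes them, by 0.79 (SE 0.088). Purine, pyrimidine and pentose phosphate enzymes counted 7 lower and 3 higher of 26. Adk, the adenosine kinase, fell by 1.24 (SE 0.078), Cad, which starts pyrimidine synthesis, by 1.15 (SE 0.084), and Prps1, which makes the ribose donor of nucleotides, by 1.00 (SE 0.077). With the set of arrays as a term 4 of the list were called lower, and against Con replicate 1 alone 3.

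Called lysosomal genes, of the proton pump and of the enzymes, were all higher. The vacuolar ATPase is a rotary pump that acidifies lysosomes, with a soluble V1 part that uses ATP and a V0 part that passes protons through the membrane. Its genes and those of the lysosomal hydrolases are known targets of TFEB, TFE3 and MITF, which bind CACGTG with flanking bases, the CLEAR element. Of 22 pump subunits and accessory proteins 12 rose and none fell, and of 36 hydrolases and lysosomal membrane proteins or their regulators 18 rose and none fell, 54.5% and 50.0% against a background of 8.06%. The medians were 0.46 and 0.28. With the set of arrays as a term in the fit 11 and 15 rose, and against Con replicate 1 alone 10 and 13.

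The CACGTG core was in 10 of 33 lysosomal promoters, against 9.21% of all protein-coding promoters. It was in 9 of the 17 that rose and in 1 of the 16 others. In the pump list it was in 4 of 16, and in 3 of the 8 that rose. Dim members can less easily be called, and 27 of the 36 lysosomal genes measured lay above the receptor limit. Tfe3 itself rose by 0.63, while Tfeb at 0.04 and Mitf at 0.15 were not called. These factors are named after their values were seen, and their part in the rises was not tested. The stretches of Ctsf at chr19:4855062-4855115 on the plus strand and Ctsl at chr13:64370727-64370770 on the minus strand are shown, as these cathepsins were among the largest rises of the list.
Ctsf: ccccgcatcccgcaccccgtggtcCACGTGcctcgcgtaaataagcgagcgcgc
Ctsl: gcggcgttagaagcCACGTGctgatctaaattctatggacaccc
The core stood 79 bases before the start of Ctsf and 236 before that of Ctsl.

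Atp6v1d, the subunit D of the central stalk of V1, read 10.92 ± 0.065 (SD, n = 3) on the Con arrays and 14.05, 14.22 and 13.73 on the DOX arrays, 8.44-fold higher (adjusted p = 5.9e-06). It stood apart from the rest of its list, whose next rises were Atp6v0d1 of the V0 part at 1.47 (SE 0.16), Atp6v1h of V1 at 1.16 (SE 0.070) and the accessory protein Atp6ap1 at 1.06 (SE 0.048). Ctsf, the cysteine protease cathepsin F, read 5.41, 5.31 and 5.41 against 7.71, 7.78 and 7.17, 4.52-fold higher (adjusted p = 9.83e-05). Tpp1, the tripeptidyl peptidase missing in a form of Batten disease, read 8.78, 8.69 and 8.21 against 10.54, 10.33 and 10.50. In each of these genes all DOX arrays lay above all Con arrays, while 32.9% of all genes showed such separation in either direction.

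Vesicle traffic genes moved in both directions. Of 56 Rab GTPases, which mark and steer membranes, 13 rose and 7 fell, and 9 and 6 with the set of arrays as a term. The shares were 23.2% and 12.5%, against 17.4% and 15.7% of genes above the receptor limit, where 37 of the 56 lay. Rab13 rose by 1.67 (SE 0.17), Rab21, of early endosomes, by 1.21 (SE 0.11), and Rab7, which takes late endosomes to the lysosome, was among the other rises. Rab6b, of the Golgi, fell from 7.58, 7.65 and 7.69 to 6.57, 6.48 and 6.51 (adjusted p = 1.19e-05). Of 48 ABC transporters 10 rose and none fell. Abcc9, the sulfonylurea receptor subunit of the potassium channel that closes with ATP, rose from between 5.90 and 6.16 on the Con arrays to 7.86, 7.74 and 7.62, 3.30-fold (adjusted p = 1.73e-05).

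Among 365 solute carriers 56 rose, 15.3%, and 22 fell, 6.03%, against 38 and 14 with Con replicate 1 alone. Slc12a4, the potassium chloride cotransporter of cell volume, read 7.81, 7.79 and 7.64 against 10.36, 10.37 and 9.92 (adjusted p = 1.21e-05). Slc6a8, the creatine transporter, read 7.14, 7.12 and 7.31 against 9.19 ± 0.19 (SD, n = 3), 4.01-fold higher. Gatm, which makes the precursor of creatine inside the cell, read 5.58, 5.66 and 5.41 against 4.61, 4.65 and 4.54 and passed below the receptor limit. Of 88 potassium channel subunits none rose and 4 fell, 4.55% against 7.53% of all genes, and most lay under the receptor limit, since 11 stayed when dim genes were left out. The largest of these falls was Kcnj8, the pore subunit that Abcc9 regulates, from 6.42, 6.53 and 6.16 to 5.35, 5.63 and 5.43 (adjusted p = 0.00155).

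Genes of folding and degradation in the endoplasmic reticulum changed in both directions. Of 23 measured 4 rose, 7 fell and the others were not called, among them Hspa5, the main HSP70 of the reticulum, at 0.16. Those that rose were Atf6 and Xbp1, transcription factors of the unfolded protein response, and Sel1l and Derl1, which pull misfolded proteins out for destruction. Atf6 read 5.53, 5.63 and 5.37 against 6.85, 6.93 and 6.70, and Sel1l read 6.77, 6.81 and 6.71 against 7.97, 8.06 and 7.89 (adjusted p = 1.55e-05). Among those that fell, Pdia6, a disulfide isomerase, went from 7.85, 7.91 and 7.70 to 6.63, 6.69 and 6.78, and Hsp90b1, the HSP90 of the reticulum, fell by 0.99 (SE 0.14). Dnajc10, a reductase with a J domain, fell by 0.85 (SE 0.11) and Creld2 by 0.67 (SE 0.066). Roles did not split by direction, since Edem2, which also sends proteins to degradation, fell by 0.44. Hspa5 and Edem2 are named outside the naming rule, after their values were seen.

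Heat shock chaperones also moved against each other, with 4 higher and 7 lower of 21. Hsph1, the exchange factor HSP110, fell from 8.54, 8.44 and 8.48 to 7.27, 7.36 and 7.32 (adjusted p = 8.12e-06). Stip1, which passes clients from HSP70 to HSP90, fell by 0.92 (SE 0.084). Hspe1 and Hspd1, the small and large parts of the mitochondrial chaperonin, fell by 0.84 (SE 0.081) and 0.83 (SE 0.11). The rises were Hspa4, Cryab, Bag3 and Hspb8, the last 3 of which work together on damaged filament proteins in muscle. Hspa4 rose by 0.71 (SE 0.080) and Cryab by 0.59 (SE 0.094), while Bag3 and Hspb8 read 0.48 and 0.46. Without DOX replicate 2 the list had 2 called higher, and against Con replicate 1 alone 1.

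Hspd1 and Hspe1 lie head to head, so their promoter windows overlap on chromosome 1. The stretch chr1:55088035-55088100, shown on the minus strand of Hspd1, lies within both windows and holds overlapping copies, on opposite strands, of the heat shock element, searched as GAA, TTC and GAA in a row with any 2 bases between each, on both strands.
Hspd1: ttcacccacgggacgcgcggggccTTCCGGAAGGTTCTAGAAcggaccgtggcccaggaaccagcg
The element was in 5 of 18 promoters of the chaperone list and in 0.617% of all. The 5 were those of Hspd1, Hspe1 and Hsph1, which fell, and Dnajb6 and Chordc1, which were not called, with differences of 0.17 and 0.78. None of the 3 promoters of members that rose held it. The part of the element in these changes was not tested.

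**Figure D4:**
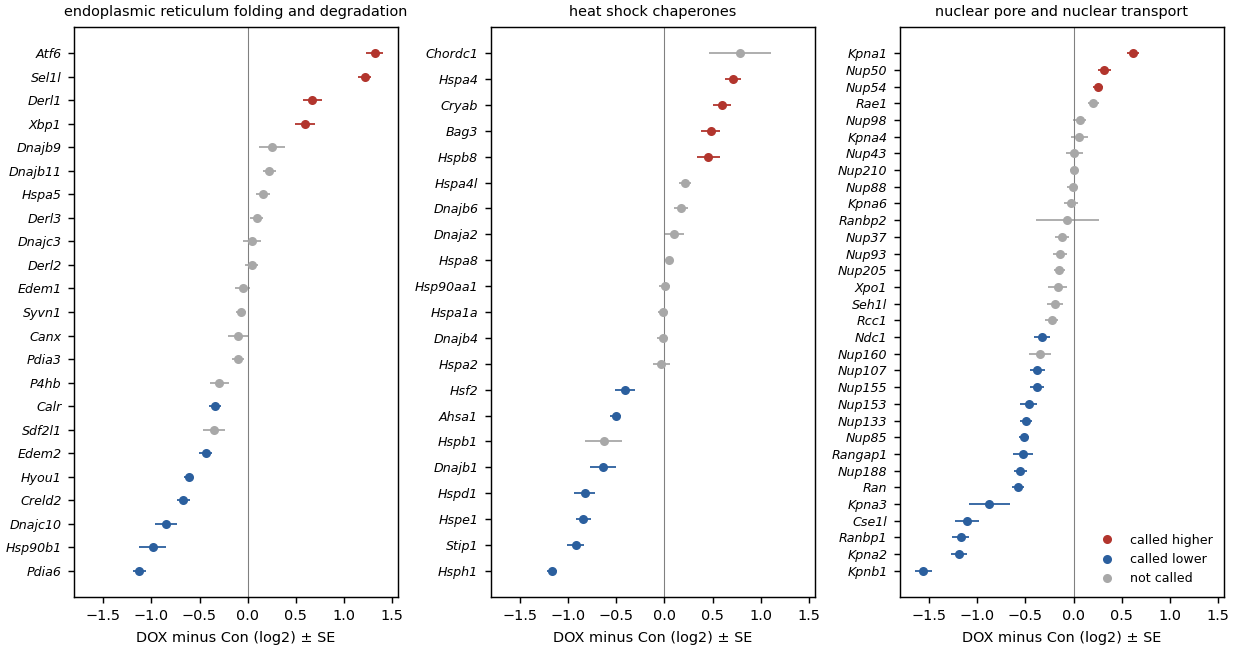
Difference DOX minus Con (log2, horizontal axis) with its standard error from limma for every measured member of 3 lists: folding and degradation in the endoplasmic reticulum, heat shock chaperones, and the nuclear pore with its transport factors. Red points were called higher, blue lower and grey not called; Atf6 heads the first list at 1.32, Hsph1 ends the second at -1.17 and Kpnb1 ends the third at -1.56.

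Subunits of the proteasome, which degrades tagged proteins, were mostly lower where they were called: 11 of 34 fell and 1 rose, Psmd5, a chaperone of its assembly. The largest fall was Psma5, of the core ring, from 8.53, 8.65 and 8.67 to 7.59, 7.66 and 7.72. With the set of arrays as a term 7 of the list were called lower, and against Con replicate 1 alone 6. F-box proteins, which choose what is tagged, had 14 of 78 higher and 4 lower, 17.9% and 5.13%, against 8.06% and 7.53% of all genes. Of genes above the receptor limit, where 35 of the 78 lay, 17.4% were higher and 15.7% lower. Fbxo38 rose by 0.88 (SE 0.052), and Fbxo32, the ligase atrogin-1 of muscle wasting, from 5.40, 5.42 and 5.41 to 6.04, 6.18 and 6.07.

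Mitochondrial genes showed a narrow set of changes. Of 81 subunits of the respiratory chain and ATP synthase 14 fell and 2 rose, 17.3% and 2.47%. The count of rises was 4 without DOX replicate 3 and 1 without Con replicate 2 or DOX replicate 1 or 2. Atp5g2, which encodes the c ring of the synthase, read 14.24, 14.42 and 14.60 against 12.70, 12.74 and 12.48, 3.44-fold lower (adjusted p = 4.02e-05). Cox6b1 read 11.83, 11.91 and 11.98 against 10.28, 10.36 and 10.02. Ndufa4, also of cytochrome oxidase, fell by 1.23 (SE 0.17). In a list of 36 genes of mitochondrial import, fusion, fission and biogenesis, Lonp1, the protease of the matrix, rose from 5.98, 6.10 and 6.02 to 8.04, 7.98 and 7.59, 3.57-fold (adjusted p = 2.8e-05), and the next rise in that list was 0.57, for Timm8b, a chaperone of import. Cat, the peroxisomal catalase that removes hydrogen peroxide, rose by 1.11 (SE 0.11).

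Transcripts of nuclear transport genes were lower more often than higher. Of 32 pore proteins and transport factors 14 fell, 3 rose and 15 were not called, 43.8% against a background of 7.53%, and 14 fell against Con replicate 1 alone as well. Of the 32 genes 30 lay above the receptor limit, where 15.7% of all genes were called lower. The largest falls were in the carriers rather than the pore. Kpnb1, importin beta, read 11.85, 11.85 and 11.63 on the Con arrays and 10.23, 10.23 and 10.19 on the DOX arrays, 2.95-fold lower (adjusted p = 1.84e-05). Kpna2, an importin alpha, fell by 1.19 (SE 0.084), Ranbp1, a cofactor of the GTPase Ran, by 1.17 (SE 0.087), and Cse1l, which returns importin alpha to the cytoplasm, by 1.11 (SE 0.12). Kpna1, another importin alpha, rose by 0.62. Many of these genes are also known to be higher in dividing cells, and of 211 cell division genes 145 fell here. Their part in these counts was not tested.

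Chromatin genes changed in both directions. Of 32 enzymes that write, read or erase methyl marks on DNA and histones, 9 fell and 6 rose. Uhrf1, which guides DNA methylation after replication, fell from 6.62, 6.90 and 6.68 to 5.29, 5.32 and 5.27, 2.72-fold, and Ezh2, the writer of the Polycomb mark on histone H3, fell by 0.90 (SE 0.089). Kdm6b, an eraser of that mark, rose from 6.78, 6.69 and 6.78 to 7.64, 7.65 and 7.44 (adjusted p = 0.000141), and Kdm3a, an eraser on another site of H3, rose by 0.77. Writers and erasers did not part by direction: Prmt5, which methylates arginines, rose by 0.65, and Tet3, which starts DNA demethylation, fell by 0.42 and is named outside the naming rule, after its values were seen. Uhrf1 and Hmgb2, like Lmnb1 below, also belong to the cell division list. Among 17 high mobility group and nuclear lamina genes 6 fell and none rose, with Hmgb2 lower by 1.47 (SE 0.20) on the log2 scale and Lmnb1, lamin B1, whose loss marks senescent cells, lower from 5.81, 5.82 and 5.66 to 4.99, 4.93 and 4.96.

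Splicing factors counted 10 lower and 1 higher of 33. Srsf2 read 11.63, 11.64 and 11.34 against 10.26, 10.19 and 10.31, and Srsf1 read 12.45, 12.23 and 11.69 against 10.87, 10.65 and 10.99. The riser was Tra2a, at 8.77, 8.63 and 8.44 against 9.72, 9.81 and 9.53. Without Con replicate 1 the list had 5 lower, without Con replicate 2 it had 4, and without DOX replicate 1, 2 or 3 it had 6, 5 and 5, while Srsf1, Srsf2 and Tra2a were called in all 9 such fits. With the median of each array subtracted the list had 6 lower. Among translation factors the largest changes were Eif5a, which relieves stalled ribosomes, lower by 1.25 on the log2 scale (SE 0.10) and Eif2b3, part of the exchange factor of eIF2, higher by 1.07 (SE 0.078).

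Genes that RefSeq classes as small nuclear RNA were singled out after their values were seen. Most such RNAs are parts of the spliceosome, but the class also holds genes of U3, a small nucleolar RNA, and of 7SK. Of 913 such genes, many of them near-identical copies that share probes, 75 were called lower and none higher by limma, 8.21% against a background of 7.53%, so the count is near that of all genes. Their median difference was -0.40, against 0.00 for protein-coding genes. Rnu2-10, a U2 gene, read 14.10, 14.57 and 14.95 on the Con arrays and 12.41, 12.52 and 11.91 on the DOX arrays (adjusted p = 0.000841). Rnu12, of the minor spliceosome, read 6.99, 7.18 and 7.73 against 5.40, 5.64 and 5.42, and Rnu11, also of the minor spliceosome, 11.80, 11.95 and 13.17 against 10.63, 10.54 and 10.97. All DOX arrays lay below all Con arrays in these 3 genes, which were the only ones called of 15 with a name of their own. Such separation, in either direction, was seen in 32.9% of all genes. Rnu6, of U6, differed by -0.87 (adjusted p = 0.114), Rnu5g, of U5, by -0.74 (adjusted p = 0.122), and the U1 genes Rnu1a1 and Rnu1b1 by -0.07 and -0.45 (adjusted p = 0.794 and 0.31). With the set of arrays as a term Rnu11 had an adjusted p = 0.062. Con replicate 3 had the highest class median of the 6 arrays, 5.99 against 5.58 and 5.67 for the other Con arrays and 5.32 to 5.39 for the DOX arrays. Against Con replicate 1 alone the class median was -0.18 and 29 genes were called lower, and with the set of arrays as a term -0.27 and 32.

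**Figure D5:**
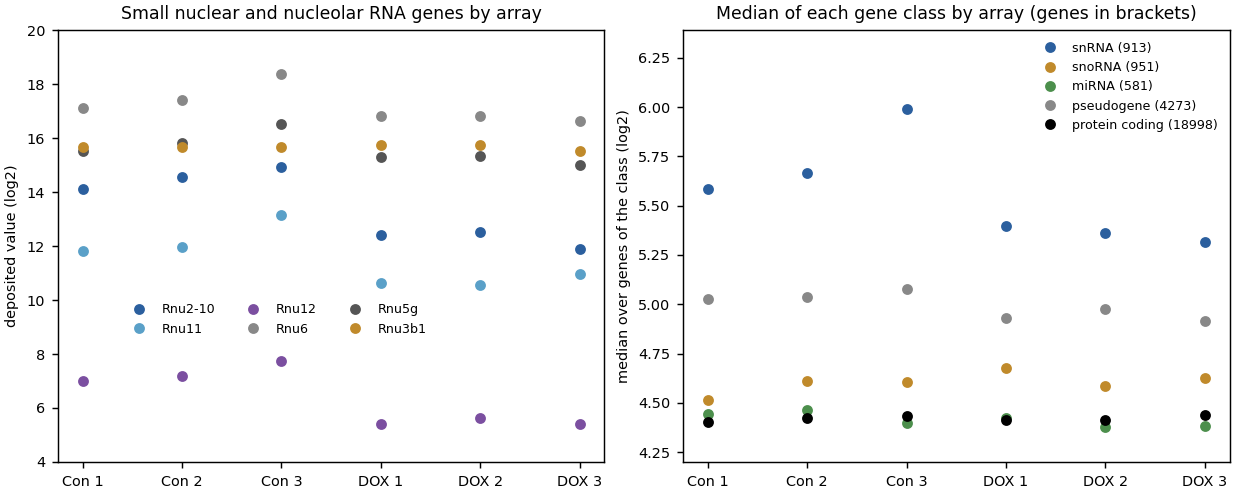
Left, deposited log2 values on each Con and DOX array of 5 small nuclear RNA genes and of Rnu3b1, a small nucleolar RNA gene. Right, the median log2 value over all genes of 5 classes on each array, with the number of genes in brackets; the small nuclear RNA medians of the DOX arrays, 5.32 to 5.39, lie below those of the Con arrays, 5.58 to 5.99, and the protein-coding medians stay between 4.40 and 4.44.

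The arrays also carry probes for the precursor transcripts of microRNA genes. These measure the gene's transcript and not the mature microRNA. Of 580 such genes 5 rose and 21 fell, 0.862% and 3.62%, under the background in each direction. A mature sequence from RefSeq (GRCm38.p6) was found for 23 of the 26. The 2 rising genes of the miR-34 cluster on chromosome 9, known p53 targets, share the seed of their 3p arms, and 3 falling let-7 genes on separate chromosomes share theirs. They are shown 5′ to 3′ with bases 2 to 8, the seed that pairs with target RNA, in capitals. In the order shown they lie at chr9:51103574-51103595, chr9:51103044-51103065, chr10:122985698-122985719 and chr13:48536078-48536099 on the minus strand and at chr15:85706616-85706637 on the plus strand.
mmu-miR-34b-3p: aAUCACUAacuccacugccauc
mmu-miR-34c-3p: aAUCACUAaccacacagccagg
mmu-let-7i-5p: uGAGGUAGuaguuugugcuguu
mmu-let-7d-5p: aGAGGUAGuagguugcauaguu
mmu-let-7c-5p: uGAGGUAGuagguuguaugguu
Mir34c read 6.20, 6.57 and 5.92 on the Con arrays and 8.06, 7.96 and 7.81 on the DOX arrays, 3.29-fold higher (adjusted p = 0.000692), and Mir34b rose by 0.83 (SE 0.10). Mirlet7i read 5.54, 5.76 and 5.75 against 4.63, 4.86 and 4.86 (adjusted p = 0.000543). Mirlet7d and Mirlet7c-2 fell by 0.39 and 0.32, and were called in 7 and 3 of the 9 fits that left out 1 array. With the set of arrays as a term both calls were lost (adjusted p = 0.11 and 0.20 by limma). No other let-7 gene was called. The largest fall was Mir501, on the X chromosome, from 6.54, 6.49 and 5.72 to 4.59, 4.62 and 5.07.

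Called microtubule genes were mostly lower, and actin genes less clearly so. Of 28 tubulins and their regulators 13 fell and 2 rose, or 1 without Con replicate 1 or 2 or DOX replicate 1 or 2. Tuba4a fell from 14.02, 14.19 and 14.56 to 13.03, 13.09 and 12.85 (adjusted p = 0.000976), and Mapre3, a protein of growing microtubule ends, rose by 0.97 (SE 0.14). Of 33 actin cytoskeleton genes and targets of SRF and YAP, the factors that read actin tension, 12 fell and 6 rose, and 9 and 10 after quantile normalization. Flnc, the muscle filamin, fell by 1.13 (SE 0.096) and Myh10, a nonmuscle myosin, by 1.04. Ajuba, a LIM protein of cell junctions that binds the kinases above YAP, rose from 9.05, 8.98 and 9.11 to 10.82, 10.97 and 10.66, 3.42-fold (adjusted p = 7.58e-05).

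Of 32 integrins and proteins that tie them to actin 6 rose, 7 fell and 19 were not called, with a median of 0.00. These shares, 18.8% and 21.9%, stood against 8.06% and 7.53% of all genes. They were nearer the 17.4% and 15.7% of genes above the receptor limit, where 21 of the 32 lay. Lims2, also called PINCH2, read 5.96, 5.95 and 6.04 on the Con arrays and 9.51, 9.65 and 9.06 on the DOX arrays, 10.8-fold higher (adjusted p = 5.9e-06). Itga11, a collagen-binding integrin chain, rose from 7.45, 7.50 and 7.47 to 9.82, 9.89 and 9.30. Itga5, the chain that binds fibronectin, fell from 9.37, 9.38 and 9.73 to 7.74, 7.76 and 7.74 (adjusted p = 1.46e-05). Tln2, talin 2, which couples integrins to actin in muscle, fell by 1.48 (SE 0.057) and Itgb5 by 1.31 (SE 0.091). Among cadherins, catenins and desmosome genes the largest changes were rises of the plakophilins Pkp1, from 9.85, 9.90 and 9.94 to 12.07, 12.13 and 11.77, and of Pkp2, which when mutated causes arrhythmogenic cardiomyopathy, by 1.53 (SE 0.14).

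Matrix proteases and their inhibitors, 36 genes, had 4 higher and 11 lower. Mmp2, gelatinase A, rose from 4.92, 4.77 and 4.92, just above the receptor limit, to 7.82, 8.14 and 7.66, 8.02-fold (adjusted p = 2.03e-05). The ADAMTS family, which cuts proteoglycans and procollagen, fell where it was called: Adamts12 by 1.33 (SE 0.22), Adamts5 by 1.22 (SE 0.17), Adamts9 by 1.16 (SE 0.082) and Adamts6 by 0.92, the last called in 3 of the 9 fits that left out 1 array. Col3a1, the fibrillar collagen III, fell from 11.70, 11.65 and 11.37 to 9.65, 9.77 and 9.69 (adjusted p = 1.16e-05), and Col1a1, of collagen I, from 17.87, 17.90 and 17.64 to 16.68, 16.72 and 16.61. Of 42 collagen chains 11 fell and 1 rose, and the count of lower chains was 6 without DOX replicate 1, and 7 without DOX replicate 2, Con replicate 1 or Con replicate 2. S100a4, a calcium-binding protein of motile cells, fell from 9.36, 9.60 and 9.74 to 6.30, 6.87 and 6.45. Pxdn, which crosslinks collagen IV, and Rcn3, a calcium-binding protein of the reticulum needed for collagen secretion, each fell by 1.74. S100a4, Col1a1 and Col3a1 are also among the 11 fibroblast markers, of which 5 fell and 2 rose. The rises were Fn1, fibronectin, by 0.40 (adjusted p = 0.14 with the set of arrays as a term) and Thy1 by 0.21, while Vim, vimentin, differed by 0.04 and Postn, periostin, by 0.42 with no call. These 4 markers are named after their values were seen. The part of a change in cell makeup in these falls was not tested.

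Muscle regulators changed in both directions. Of 36 genes of skeletal muscle differentiation and its inhibitors 6 rose and 10 fell, against 3 and 8 with Con replicate 1 alone. Myog read 8.23, 7.97 and 8.34 on the Con arrays and 4.50, 4.90 and 4.87 on the DOX arrays, 10.7-fold lower (adjusted p = 5.57e-06). Tnnc2, the fast troponin C, fell by 1.60 (SE 0.12), and Mylpf, the fast regulatory light chain, read 5.46, 5.24 and 5.63 against 4.37, 4.48 and 4.48. Id2 and Id1, which bind the E proteins that MyoD and myogenin need as partners, rose by 2.97 (SE 0.18) and 1.66 (SE 0.19). Id2 read 9.46, 10.08 and 9.67 against 12.56, 12.85 and 12.69. Myod1, MyoD itself, rose by 0.76 (SE 0.17, adjusted p = 0.0182), called in 5 of the 9 fits that left out 1 array, and the acetylcholine receptor subunits Chrnb1 and Chrna1 rose by 0.94 (SE 0.10) and 0.42 (SE 0.093). Myod1 and both receptor subunits are named after their values were seen. Tnnt2, the cardiac troponin T and 1 of the 3 heart muscle markers above the receptor limit, fell from 8.09, 7.98 and 7.74 to 6.66, 6.67 and 6.77.

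Of 20 clock genes 9 rose and 1 fell, 45.0% against 8.06%, and 10 were not called, among them Clock, Per2, Cry1 and Cry2, named after their values were seen. When Con replicate 1 was the only control, 6 were called higher. The clock is a loop in which Arntl and Clock switch on their repressors, and Nr1d1 and Dbp are outputs that follow it. Dbp read 7.31, 7.21 and 7.23 on the Con arrays and 9.14, 9.32 and 9.05 on the DOX arrays, 3.78-fold higher (adjusted p = 1.69e-05). Bhlhe40 rose by 1.63 (SE 0.14), Nr1d1 by 1.58 (SE 0.13) and Arntl by 1.34 (SE 0.16). Arntl and its own repressor Nr1d1 were thus higher in the same cells, Arntl at 6.46, 6.13 and 6.21 against 7.78, 7.79 and 7.26 and Nr1d1 at 5.26, 5.29 and 5.31 against 6.81, 7.13 and 6.65. Csnk1e, a kinase that marks Per proteins for decay, fell by 0.44. The labels give no time of harvest.

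Other transcription factors with large changes came from several families. Klf10 rose from 6.71, 6.69 and 6.88 to 10.06, 9.41 and 9.70, 7.81-fold (adjusted p = 1.15e-05), and 7 of 22 Kruppel-like and Sp factors rose, against 4 with the set of arrays as a term and 2 with Con replicate 1 alone. Of 33 Hox genes, which hold positional identity, 4 rose and 2 fell, 12.1% and 6.06%, near the 8.06% and 7.53% of all genes. Hoxa5 read 7.91, 7.89 and 7.47 against 10.43, 10.56 and 10.29 (adjusted p = 5.35e-05), its neighbour Hoxa6 rose by 1.57 (SE 0.16) and Hoxd10 by 1.25 (SE 0.079), while Hoxa10 and Hoxa4 of the same cluster fell by 0.42 and 0.27, Hoxa4 in 2 of the 9 fits that left out 1 array. Nfib fell from 8.62, 8.14 and 7.83 to 5.81, 5.83 and 5.75. Tcf7l2, a nuclear effector of Wnt signals, fell by 1.34 (SE 0.083), and Nr2f2, the orphan receptor COUP-TFII, from 9.53, 9.42 and 8.74 to 7.98, 7.83 and 7.96.

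In a joint list of Notch and Hedgehog genes 18.2% were called higher and 18.2% lower, and 21 of 33 were not called. These shares were near the 17.4% and 15.7% of genes above the receptor limit, where 19 of the 33 lay. Called Notch genes were mostly higher and called Hedgehog genes lower, a split made after the values were seen. The 6 rises of the joint list of 33 were Hes1, Jag1, Hey2, Hey1, Hes6 and Notch1, all of the Notch pathway. The 6 falls were Cdon, Gli3, Gli2, Sufu and Ptch1 of the Hedgehog pathway and Notch2, a receptor. Jag1, a ligand, read 8.83, 8.91 and 8.69 against 10.02, 9.82 and 9.68, and Hes1, a target and repressor, rose by 1.26 (SE 0.13) with adjusted p = 0.000384. Cdon, a coreceptor of Hedgehog ligands, fell by 0.73 (SE 0.082). Hey1 and Hey2, at 0.77 each, had an adjusted p = 0.066 and 0.052 against Con replicate 1 alone, where 3 of the list were called higher and 5 lower. Notch1, Hes6, Sufu and Ptch1 are named here outside the naming rule, after their values were seen, to complete the count.

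Growth factors and their receptors were more often higher: 18 of 55 rose and 4 fell, 32.7% and 7.27%. Of all genes 8.06% rose and 7.53% fell, and of genes above the receptor limit, where 26 of the 55 lay, 17.4% and 15.7%. Beside Vegfa, its relative Vegfb rose from 8.64, 8.64 and 8.56 to 9.60, 10.02 and 9.93, 2.36-fold. Kitl, stem cell factor, read 5.59, 5.23 and 5.46 against 7.06, 7.07 and 6.85 (adjusted p = 0.000278). Fgf7, a factor that acts on epithelium, fell by 1.10 (SE 0.23). Among 49 genes of TGF-beta and BMP signalling 13 rose and 6 fell, 26.5% and 12.2%, and 33 of the 49 lay above the limit. The ligand Tgfb3 was higher, 11.15, 11.20 and 11.22 against 12.18, 12.23 and 12.13. The ligand Tgfb1 was lower, 6.73, 6.87 and 6.81 against 6.17, 6.23 and 6.10. Dusp6, the phosphatase that ERK induces against itself, rose from 5.18, 5.27 and 4.90 to 6.97, 7.08 and 6.60, 3.40-fold.

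Hypoxia targets, insulin and FoxO genes and calcium-binding annexins gave smaller changes around a few large ones. Of 27 hypoxia factors and targets 7 rose and 4 fell, with Vegfa far above the rest. The shares were 25.9% and 14.8%, against 17.4% and 15.7% of genes above the receptor limit, where 20 of the 27 lay. P4ha1, the prolyl hydroxylase of collagen, read 7.86, 7.88 and 7.86 against 9.03, 8.91 and 8.65 (adjusted p = 0.000243). In the insulin and FoxO list Akt1, the kinase that keeps FoxO out of the nucleus, fell from 9.61, 9.78 and 9.96 to 9.22, 9.22 and 9.11 (adjusted p = 0.00279). Of 25 S100 and annexin genes 5 fell and 3 rose, and Anxa5, the annexin that binds exposed phosphatidylserine, fell from 8.84, 8.70 and 8.65 to 7.59, 7.72 and 7.82. Among imprinted genes, expressed from a single parental copy, Peg3 fell from 9.56, 9.27 and 8.54 to 7.74, 7.48 and 7.95 and Phlda2, a gene that restrains placental growth, rose from 4.69, 5.07 and 4.33 to 6.19, 6.27 and 5.47.

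Guidance molecules were first described in growing axons and also act in vessels and heart. Of 58 measured 12 rose and 9 fell, 20.7% and 15.5%, against 8.06% and 7.53% of all genes. Of genes above the receptor limit, where 34 of the 58 lay, 17.4% and 15.7% did, so the counts are near that background. The ligand ephrin B2, Efnb2, read 9.11, 9.06 and 8.44 on the Con arrays and 11.13, 11.11 and 10.85 on the DOX arrays, 4.47-fold higher (adjusted p = 7.12e-05). The receptor Epha2 rose by 1.37 (SE 0.081) and the semaphorin receptor Plxna1 by 1.24 (SE 0.14), while the receptor Ephb3 fell by 0.68 (SE 0.061). Against Con replicate 1 alone 6 rose and 6 fell.

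Regulators of NF-kappaB, the factor of inflammation, gave a count that hung on single arrays. Of 29 genes 12 rose and none fell, but 3 rose against Con replicate 1 alone, and 7 rose with the set of arrays as a term or without Con replicate 2, DOX replicate 1 or DOX replicate 2. The largest rise was Cyld, a deubiquitinase that brakes the pathway, from 5.79, 5.90 and 5.58 to 6.85, 6.84 and 6.82 (adjusted p = 0.000145). Next came Nfkbia, the inhibitor IkB alpha, by 0.70 (SE 0.087), Birc2 by 0.67 (SE 0.14) and Rela, a subunit of the factor itself, by 0.61 (SE 0.15). Brakes on the pathway and the factor itself thus rose together. In the tumour necrosis factor family 2 of 37 rose, Tnfrsf12a and Eda2r, the latter also in the p53 list, and none fell.

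Some genes passed from the range of silent receptors into measurable signal. Symbols of predicted genes, clones, pseudogenes and replication-dependent histones were left out here, so the protein-coding share is not that of all called genes. In 168 of the remaining called genes all Con arrays lay at or under the receptor limit and all DOX arrays above it. Of these 166 were protein-coding, and 91 genes passed the other way, while 4687 of 30050 genes were called in all. The largest such rises were Fam71f1, at 4.49, 4.63 and 4.56 against 6.42, 6.28 and 6.40, and Klk4, a serine protease of tooth enamel, at 4.38, 4.56 and 4.47 against 6.40, 6.09 and 6.21. Ano3, of the anoctamin family, rose by 1.57 (SE 0.13), and Casp4, the inflammatory caspase that senses bacterial lipopolysaccharide, by 1.35 (SE 0.12). F3, tissue factor, which starts blood clotting, read 4.50, 4.16 and 4.19 against 5.63, 5.03 and 5.26 (adjusted p = 0.00182). The genes that passed downwards were led by Hmgcs1, and outside division genes included Mylpf and Gatm. Array summaries compress differences at this end of the scale, so these changes may be understated.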

How the data were processed

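The authors deposited log2 values of 65527 transcript clusters on 9 arrays, made with RMA per the submitters' processing notes; the log2 scale was read from the range of the values, and the sources used here name no software version or genome build. The platform annotation, which can be old, listed 30376 clusters with 1 symbol, 2117 with several and none for 33034; for 245 genes with more than 1 such cluster the one of highest mean was kept, giving 30050 genes, and 29745 symbols matched RefSeq. Samples were grouped by their titles. limma 3.58.1 in R 4.3.3 fitted 3 group means to all 9 arrays (lmFit, eBayes, residual df 6), with Benjamini-Hochberg adjustment over all genes. With 3 arrays a group precision is limited: the 95% interval of a difference had a median half-width of 0.19.

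The genes named are the 15 largest rises and falls of called protein-coding genes outside the p53, division and histone genes, with arrays that do not overlap, the 10 largest that crossed the receptor limit each way, and up to 4 called members of each list in each direction, by size, leaving out predicted and clone symbols; microRNA and small nuclear RNA genes and those said to lie outside the rule are exceptions. The genes and lists were chosen with earlier results of these data known. Replicate numbers did not pair the arrays, with correlations of same-numbered deviations of -0.02, -0.06 and -0.11. On simulated data over 30050 genes the fit recovered 47.8% of 67 genes given a change of 0.5 and 83.6% of 67 given 1. Of 66 given 2 it recovered 93.9%, and it made 7 false calls. Only these genes were changed, far fewer than the 4687 called in the data. The adjustment depends on how many genes change, so these rates do not describe this contrast. Motifs were matched exactly in 300-base RefSeq promoters (GRCm38.p6), found for 17933 genes. Alternatives were other normalizations, filters, designs and each array left out.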

Additional observations from a re-analysis of the deposited data

Results flagged for a closer look

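Signal outside the genes described came from the 33034 transcript clusters for which the annotation listed no symbol. In a limma fit adjusted over all 65527 clusters, 157 of them were called higher and 468 lower, 1.89% in all, against 11.5% of the clusters with 1 symbol. Of the unnamed clusters 14.7% lay above the receptor limit, against 39.9% of those with 1 symbol. What these clusters measure was not tested.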

How the results depend on the processing

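The counts of genes called were 2423 higher and 2264 lower. Against Con replicate 1 alone, the sole control in the set of arrays with DOX, they were 1138 and 1389, with fewer arrays. Leaving out 1 array at a time gave 1749 to 2381 higher and 1580 to 2249 lower. With the replicate number as a block, 2270 and 2202 were called, and the block changed neither count by over 1.5 times; the numbers do not pair the arrays. Over all 19 alternative settings no named gene reversed its direction, and 360 of the 443 named genes were called in every fit that left out 1 array. These genes were named because they were called on the same arrays, so a kept direction was close to given. The share of calls that were higher was 51.7%, 56.7% after quantile normalization, 59.5% with array medians subtracted and 45.0% against Con replicate 1 alone. Subtracting array medians moved the median of all genes from -0.01 to 0.02. Differences of dim genes, under the receptor limit, may be understated. Changes of 0.5 were often missed on simulated data, in which far fewer genes changed than were called here.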

Other observations

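Transcript classes differed in how often they were called. Of 18998 protein-coding genes 2195 were called higher and 1528 lower, while of 4273 pseudogenes 168 were called higher and 525 lower. Of 3167 long noncoding RNA genes 10 were called higher and 26 lower, 1.14% in all, and 228 of them lay above the receptor limit. Small nucleolar RNA genes, which guide the modification of ribosomal RNA, had 22 higher and 35 lower of 951. Pseudogenes share sequence with their parent genes, so probes may read both.

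Gene length was set beside the calls for the 7813 protein-coding genes above the receptor limit. Sorted by length into 5 bins of equal size, the bin of shortest genes had 21.4% called higher and 14.3% lower, the middle bin 27.0% and 16.6%, and the bin of longest genes 20.9% and 19.5%. Across these genes, which are not independent replicates, Spearman's correlation of length with the difference was -0.01. Clusters with several symbols, 2117 in number, had 60 called higher and 112 lower.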
